A study of Mus musculus with 5 samples.

Results

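The comparison set the whole testis suspension at 763.2 h against that at 556.8 h and asked what differed once round and elongating spermatids were both present. Its members were the barcodes (droplets taken as cells) with at least 1000 UMIs, unique molecular identifiers that each stand for 1 captured RNA molecule, and under 50% of UMIs from mitochondrially encoded RNA. They numbered 9229 of 9301 deposited barcodes at 556.8 h and 11961 of 11987 at 763.2 h, so 21190 of the 46451 barcodes of the whole series. All UMIs of a library were summed per gene and given as CPM, the gene's UMIs scaled to a common total of kept UMIs in each library. Droplet-based libraries were made from mouse testes of synchronized spermatogenesis at 0, 144, 350.4, 556.8 and 763.2 h, 1 library per time. The 0 h library is titled Control, and those at 144 and 350.4 h are titled EP1 and EP2. Both samples compared were whole testis, titled EP3 at 556.8 h and EP4 at 763.2 h, with 206.4 h between them, and the series places all its samples at returns of stages VIII to IX of the cycle of the tubule epithelium. The labels do not say what the EP codes stand for, nor do they give the strain, age or genotype of the mice, the synchronizing agent or how many animals were pooled. Since settled tubules were rinsed and their supernatant taken off before trypsin freed the cells, cells from between the tubules could have been lost in part.

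With 1 library per time no difference had a replicate check, no test was made, and intervals (95%) cover counting error only. They describe these libraries and not the conditions. The kept barcodes held 117534431 UMIs at 556.8 h and 116636199 at 763.2 h. The median barcode had 6075 and 3072 UMIs. The shallowest barcode had 2443 and 1821 UMIs, so the libraries began at unequal depths. The libraries shared 30 barcode sequences, none with the same counts. Mitochondrial RNA took 3.98% and 3.34% of UMIs. In a sum over a suspension, more cells of a type and more RNA per cell cannot be told apart.

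Spermatogenesis takes a diploid spermatogonium through meiosis to haploid round spermatids, which then elongate into sperm. Round spermatids build the acrosome, the enzyme-filled cap used to reach the egg, and start the flagellum. Elongating spermatids replace histones first by transition proteins and then by protamines, shut down transcription and assemble the sheaths of the tail from messages that were often made and stored earlier. Near stages VIII to IX the round spermatids of 1 generation begin to elongate while an older generation is released as sperm.

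Genes that differed beyond 2-fold were mostly higher at 763.2 h. Spam1 and Lyzl6, of the sperm surface and the acrosome, were among the 15 that stood highest, and the protease-like Prss52 and the transcription factor Pou5f2 were among the 15 that stood lowest. Of 27998 listed features, 8655 reached 10 CPM in at least 1 of the libraries. The ratio of CPM at 763.2 h to that at 556.8 h had an interval wholly above 2 for 912 of them (10.5%) and wholly below its inverse for 108 (1.25%); these are called higher and lower below. The other 7635 lay between. The median log2 ratio over all 8655 was -0.15. An interval wholly above 4 was found for 205 genes and one wholly below its inverse for 5. Predicted gene models and clones made up 311 of the higher and 26 of the lower genes.

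Higher genes differed in kind from the genes tested, while the counts behind the shares of lower genes were small. By the GENCODE vM21 annotation (GRCm38), 50 of the 910 higher genes with a location lay on the X chromosome (5.49%), against 208 of 8647 tested genes (2.41%) and 4 of 108 lower genes (3.70%). Long intergenic RNAs made up 12.3% of the higher genes (112), 9.26% of the lower (10) and 3.83% of those tested (331). Antisense RNAs made up 8.35%, 5.56% and 3.06%, and where the counting did not use strand, their reads could not be told from those of the gene they overlap.

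**Figure D1:**
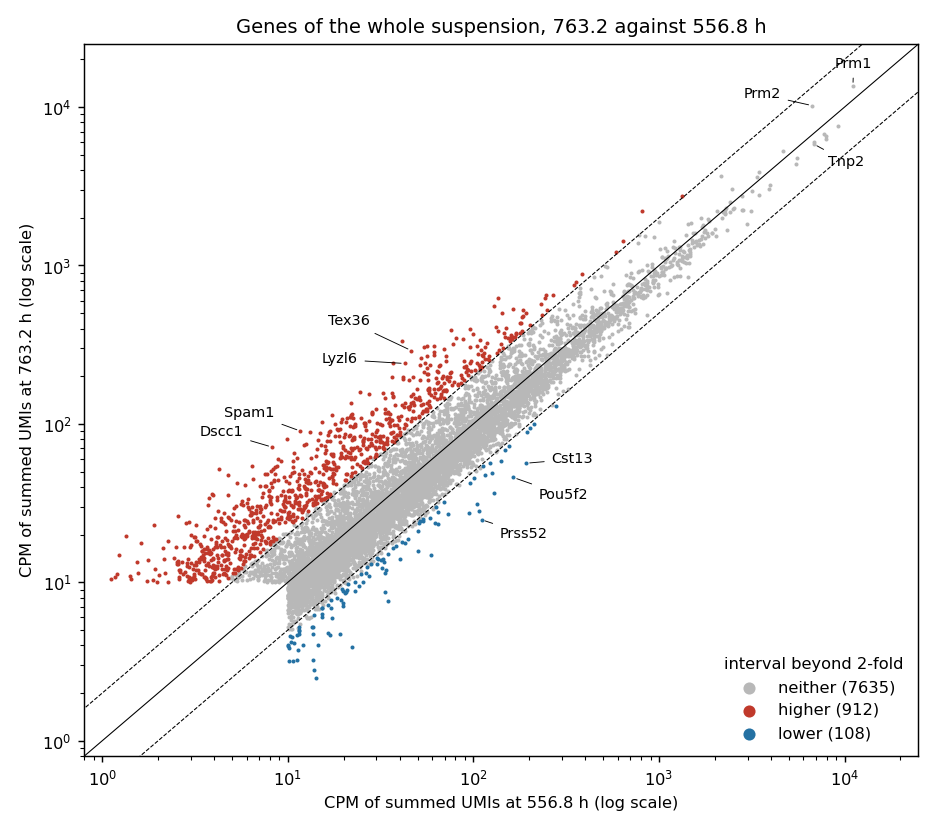
CPM of summed UMIs of the 8655 tested genes at 556.8 h (x axis) and 763.2 h (y axis), both on log scales, 1 point per gene, with equality as a solid line and 2-fold as dashed lines. The 912 higher genes (red) reach farther from the diagonal than the 108 lower ones (blue), while the abundant Prm1, Prm2 and Tnp2 lie inside 2-fold.

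Spam1, which encodes a sperm surface hyaluronidase that loosens the matrix around the egg, stood at 0 CPM at 0 and 144 h and at 7.76 CPM at 350.4 h. It had 11.7 CPM (1371 UMIs) at 556.8 h and 90.2 CPM (10520 UMIs) at 763.2 h, a ratio of 7.73 (7.31 to 8.19). The level at 763.2 h was thus above that of each earlier library. Lyzl6, a lysozyme-like protein of the acrosome, had 0.0133, 0.0274, 17.9, 42.6 and 241 CPM in time order and a ratio of 5.64 (5.48 to 5.82). Tex36, a testis-expressed gene, had the highest level of the 15 genes named here, 46.2 CPM at 556.8 h and 290.5 CPM at 763.2 h, a ratio of 6.28 (6.11 to 6.47). In the first libraries it had 0.0398 CPM at 0 h and 0.0730 CPM at 144 h. Among the 15 genes whose interval lay farthest above 2 (at least 50 CPM at 763.2 h), 10 were under 1 CPM at both 0 and 144 h. All 15 were highest at 763.2 h, and 13 were higher at each time than at the one before from 144 h on.

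Dscc1, part of a clamp loader needed for sister chromatid cohesion, led the ranking with 8.22 CPM at 556.8 h and 71.4 CPM at 763.2 h, a ratio of 8.69 (8.13 to 9.29). Unlike Spam1 it was already there at the first times, with 11.7 CPM at 0 h, 18.6 at 144 h and 20.4 at 350.4 h. Stambpl1, a deubiquitinase, had 16.01 CPM at 0 h, 6.37 at 556.8 h and 54.0 at 763.2 h, a ratio of 8.47 (7.85 to 9.15). Galnt7, a Golgi enzyme of O-linked glycosylation, also stood above its 556.8 h level before it, with 25.01 CPM at 0 h, 8.71 at 556.8 h and 54.4 at 763.2 h. Dscc1 and Galnt7 thus had their lowest level of the 5 libraries at 556.8 h and their highest at 763.2 h. Galnt7 overlaps other annotated genes on its own strand, so its count can hold their reads.

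The rest of the 15 had ratios between 5.53 for Tex38 and 6.62 for Triml1. Spata31, of a testis-specific gene family whose members resemble each other, had 21.9 and 135.6 CPM at 556.8 and 763.2 h, and Ccdc81, a coiled-coil protein, had 27.5 and 154.8 CPM. Pyhin1, listed as Ifi209 in GENCODE vM21, had 8.57 and 53.7 CPM. Pp2d1, Lurap1, Spsb1 and Nipsnap3a had ratios of 6.17, 5.99, 5.96 and 5.86. No ratio of these 15 genes moved by 1.5 times under any of 12 other ways to choose, weigh or scale the barcodes. Below 50 CPM, and picked after their values were seen, Gip (the gut hormone GIP) had 1.34 and 19.5 CPM, a ratio of 14.6 (12.4 to 17.3), and Lcn2 (lipocalin 2) 1.23 and 14.9 CPM, a ratio of 12.2 (10.3 to 14.6).

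Most of the lowest genes had their highest level of the 5 libraries at 556.8 h. Prss52, a testis serine protease-like gene, had 0.0398, 0, 1.45, 111 and 24.8 CPM in time order and a ratio of 0.224 (0.215 to 0.234). Actrt3, an actin-related protein, had 58.9 CPM at 556.8 h and 14.9 CPM at 763.2 h. Of the 15 genes whose interval lay farthest below (at least 50 CPM at 556.8 h), 13 were highest at 556.8 h, and 13 still had more CPM at 763.2 h than at 350.4 h. The exceptions to the peak were Prss50, highest at 144 h with 193 CPM, and PISD, a copy of the phosphatidylserine decarboxylase gene on an unplaced scaffold, highest at 350.4 h with 148 CPM. Reads of PISD may be split with other copies of that gene.

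Cst13, a cystatin, had 192 CPM at 556.8 h and 56.5 CPM at 763.2 h, a ratio of 0.293 (0.285 to 0.302). Pou5f2, a POU-domain transcription factor of male germ cells, had 164 and 45.9 CPM, a ratio of 0.280 (0.271 to 0.288). Trp53tg5, Tuba8 (an alpha-tubulin) and Hemgn had 129, 94.98 and 104 CPM at 556.8 h and ratios of 0.284, 0.288 and 0.299. These 5 genes stood within a narrow band of ratios. Fam71b and Fam71a had ratios of 0.264 and 0.427, and Prss51, Iqcf6, Prss37 and Cdk20 had ratios of 0.313, 0.359, 0.369 and 0.441. Prss51 overlaps Prss55 on the other strand, and Pou5f2 lies within Fam172a on the same strand. In barcodes with under 10000 UMIs 8 of the 15 came inside 2-fold, Hemgn with a ratio of 0.667. Below 50 CPM, and picked after their values were seen, Ccl4 (a chemokine) had 22.1 and 3.92 CPM, Faiml 34.8 and 7.58 CPM, and Dcdc2c (a doublecortin domain protein) 14.1 and 2.49 CPM.

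**Figure D2:**
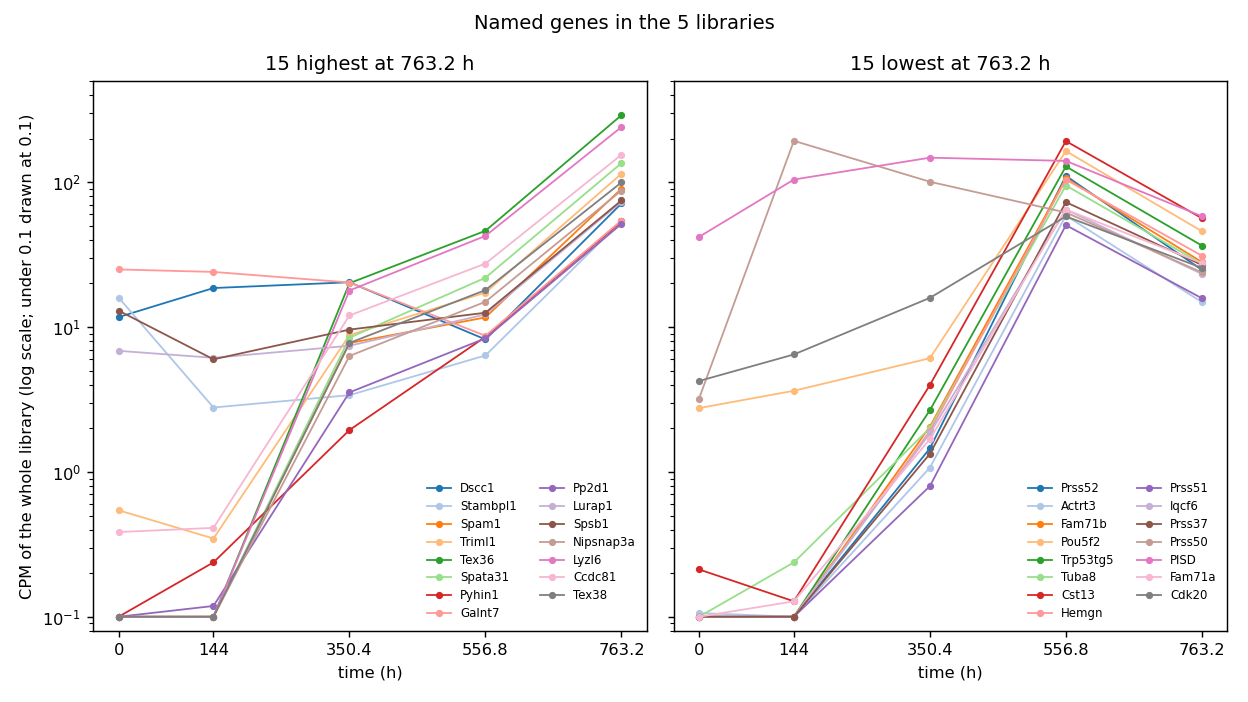
CPM of the whole library (y axis, log scale, values under 0.1 drawn at 0.1) against time (x axis, h) for the 15 highest genes (left) and the 15 lowest (right), 1 library per time. All 15 on the left are highest at 763.2 h, and 13 of 15 on the right are highest at 556.8 h.

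Promoters are shown because 1 short word stood before the start of a larger share of higher genes than of others. The sequences are the 100 bases before the RefSeq start (GRCm38.p6), 5′ to 3′ on the gene's strand, of 3 genes with the word there (Spam1 and Lyzl6, higher, and Trp53tg5, lower) and 3 without (Stambpl1, higher, and Pou5f2 and Prss37, lower). Capitals mark TGATGTCA and GGGCGG (the GC box bound by Sp1-like factors), each on either strand. The first word differs from the cAMP response element TGACGTCA, the site of CREM, an activator of spermatid genes, by C4T, counted from 1 at its 5′ end.
Spam1 (chr6:24791088-24791187, + strand): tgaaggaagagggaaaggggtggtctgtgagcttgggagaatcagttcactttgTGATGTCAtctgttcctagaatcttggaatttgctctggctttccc
Lyzl6 (chr11:103638891-103638990, - strand): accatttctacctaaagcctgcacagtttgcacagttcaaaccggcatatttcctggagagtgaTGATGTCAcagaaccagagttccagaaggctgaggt
Trp53tg5 (chr2:164473725-164473824, - strand): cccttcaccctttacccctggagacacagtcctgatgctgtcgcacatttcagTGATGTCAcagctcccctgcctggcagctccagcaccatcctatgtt
Stambpl1 (chr19:34192129-34192228, + strand): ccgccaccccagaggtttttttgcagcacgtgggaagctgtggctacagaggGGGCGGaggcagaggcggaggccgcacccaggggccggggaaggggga
Pou5f2 (chr13:78024802-78024901, + strand): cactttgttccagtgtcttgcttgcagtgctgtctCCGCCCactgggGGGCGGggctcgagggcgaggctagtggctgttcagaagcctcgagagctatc
Prss37 (chr6:40519509-40519608, - strand): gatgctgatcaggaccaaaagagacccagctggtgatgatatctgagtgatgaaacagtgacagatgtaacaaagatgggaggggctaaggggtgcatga

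RefSeq listed a promoter for 6552 of 8654 tested symbols, 631 of the higher and 72 of the lower genes, and the 250 bases before the start were searched on both strands. TGATGTCA was found in 70 of 631 higher genes (11.1%), 4 of 72 lower genes (5.56%) and 113 of 5849 genes in between (1.93%). Among all 27025 listed genes it was found in 3.02%. The word was searched for only after the promoters of named genes had been read, Spam1 and Lyzl6 among them. The full element TGACGTCA was found in 2.38% of higher genes and 3.39% of genes in between, and in 1.62% of all listed genes. GGGCGG was found in 31.1% of higher genes, 47.2% of lower genes and 57.8% of genes in between, against 32.9% of all listed genes. TATAAA, a core promoter word, was found in 9.35%, 16.7% and 6.02%, and GTTGCC, part of the site of RFX factors of cilia and flagella, in 15.4%, 18.1% and 12.2%. Over all listed genes TATAAA was found in 13.0% and GTTGCC in 10.5%. A match describes these letters and is not a bound site.

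Acrosome and sperm-egg fusion genes had the largest share of higher members among the 17 function lists. Of 34 listed, 30 reached 10 CPM. Among those tested, 18 were higher, none was lower and 12 lay between, beside 10.5% higher and 1.25% lower over all genes tested. The list had a median log2 ratio of 1.43, beside -0.15 over all genes tested. The membrane proteins of the acrosome stood together: Spaca1 had 75.4 and 394 CPM at 556.8 and 763.2 h (ratio 5.23), Spaca4 69.3 and 299 CPM (4.31) and Spaca3 80.9 and 346.5 CPM (4.29). Acrv1, a protein of the acrosome matrix, had 58.7 and 237 CPM (4.03). Izumo1, the sperm protein that binds the egg's receptor, had 22.7 and 82.8 CPM (3.65), and its relatives Izumo3 and Izumo2 had ratios of 2.88 and 2.38. Izumo4 went the other way, with 275 and 217 CPM (0.789). Abundant members lay between: Zpbp (zona pellucida binding) had 295 and 329 CPM, Adam3 441 and 480 CPM, Acrbp (a proacrosin-binding protein) 452 and 406 CPM and Zpbp2 440 and 376 CPM. Acr, the protease acrosin, had 119 and 145 CPM.

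Every one of the 18 higher members had at most 112 CPM at 556.8 h, the level of Izumo2, and the 8 members above that level all lay between. Gopc, Pick1, Sppl2c and Dpy19l2 stood below it and lay between as well. Of the round spermatid markers, which overlap this list, 8 of 12 were higher, beside 10.5% of all genes tested. Their median log2 ratio was 1.94. Sun5, which ties the sperm head to the tail, had 22.5 and 109.6 CPM (4.86). Dpy19l2, which anchors the acrosome to the nucleus, had 98.9 and 84.8 CPM (0.858). Members other than the 4 most abundant of each list were named after their values were seen, here and below.

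Genes of chromatin condensation included Prm1, the most abundant message of both libraries, and most lay inside 2-fold. Of 19 listed, 18 were tested, 3 were higher and none lower, with a median log2 ratio of 0.50. These small counts stand beside 10.5% higher and 1.25% lower over all genes tested. Prm1, which packs the sperm genome as a protamine, had 0.0133, 0, 124, 11091 and 13596 CPM in time order and a ratio of 1.23. Prm2, the other protamine of mouse sperm, had 6684 CPM at 556.8 h and 10208 CPM at 763.2 h (1.53). Tnp1 and Tnp2, the transition proteins that precede them, had ratios of 1.14 and 0.856. Protamine 2 thus differed more than the rest of these 4 genes, and Tnp2 was on the other side of 1. The higher members were Tsga8 (245 and 622 CPM), Chd5, a chromatin remodeller (79.0 and 184 CPM), and Prm3 (588 and 1214 CPM). H3f3b, a histone H3.3 gene, had 999.9 and 1892 CPM (1.89), and the linker histone H1fnt 310 and 526 CPM (1.70).

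Genes of the tail's outer dense fibres, fibrous sheath and mitochondrial sheath were higher in 10 of 29 tested (30 listed), lower in none, with a median log2 ratio of 0.76. The shares over all genes tested were 10.5% higher and 1.25% lower. Smcp, of the mitochondrial capsule, had 812 and 2215 CPM at 556.8 and 763.2 h (2.73). Oaz3, a testis antizyme, had 268 and 646 CPM (2.41). Odf1 of the outer fibres had 96.3 and 241 CPM (2.50), and Akap4, the main fibrous sheath protein, 158 and 333 CPM (2.10). All 4 are classic late spermatid messages. They are among the 14 elongating spermatid markers, of which 6 were higher, none was lower and 8 lay between. Those 14 markers had a median log2 ratio of 0.85. The abundant Odf2, Gpx4 and Ropn1l had ratios of 1.26, 0.978 and 0.932. The list's largest ratio was that of Akap14, from 5.28 to 30.4 CPM (5.75).

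Genes of the axoneme, the microtubule core of the tail, were higher about as often as all genes tested (10.5%). Of 43 listed genes 42 were tested, 5 were higher, none was lower, and the median log2 ratio was -0.06, on either side of 0 under other settings. Dnah3, a dynein heavy chain, had 15.01 and 73.4 CPM (4.89) and Spag6, of the central pair, 41.7 and 196 CPM (4.71). The 3 most abundant members lay below 1: Meig1, needed for manchette transport, had 6804 and 5973 CPM (0.878), Rsph1, of the radial spokes, 2982 and 1827 CPM (0.613) and Dnah8 624 and 396 CPM (0.635). The list's median thus stood below that of the sheath genes, with no test of the difference between them.

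Testis-specific kinases and phosphatases were higher in 3 of 18 tested (20 listed), lower in none, with a median log2 ratio of 0.70. Over all genes tested 10.5% were higher and 1.25% lower, so these small counts do not set the list apart. Tssk5 had 3.199 and 22.8 CPM (7.14) and Tssk4 22.8 and 96.9 CPM (4.25). Their relatives Tssk1, Tssk2, Tssk3 and Tssk6, kinases of the elongating spermatid, had ratios of 1.83, 1.85, 1.73 and 1.93 and lay between. Camk4 had 16.1 and 53.6 CPM (3.32). Ppp3r2, a testis calcineurin subunit and the most abundant member, had 1477 and 1139 CPM (0.771).

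The CatSper calcium channel of the sperm tail showed unequal differences among its own subunits. Of the 14 tested genes of this list (17 listed), 5 were higher and none lower, beside 10.5% and 1.25% of all genes tested. The list's median log2 ratio was -0.17, with its sign not kept under every setting. Catsper3 had 16.4 and 84.8 CPM (5.17), Catsper4 31.3 and 100.4 CPM (3.203) and Catsper1 3.44 and 11.3 CPM (3.28). Catsper2 had 198 and 182 CPM (0.919), Catsperb 34.7 and 25.4 CPM (0.731) and Catsperd 83.9 and 48.4 CPM (0.577). Of the 4 pore subunits, 3 were thus higher and Catsper2 was not, and none of the auxiliary subunits named was. Kcnu1 and Lrrc52, the potassium channel of sperm and its partner, had ratios of 2.81 and 4.12.

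Energy genes with germline isozymes were higher in 3 of 21 tested (23 listed), near the 10.5% of all genes tested, and lower in none, with a median log2 ratio of -0.22. The 3 encode glycolytic enzymes: Aldoart1 (21.99 and 61.8 CPM) and Aldoart2 (72.1 and 198 CPM), aldolase genes that resemble each other so that reads can be split, and Gapdhs (358 and 789 CPM). Pgk2, a phosphoglycerate kinase, had 297 and 452 CPM (1.52). Ldhc, the germline lactate dehydrogenase that is made from the spermatocyte on, had 7902 and 6264 CPM (0.793), and Cox8c, of the respiratory chain, 3142 and 2223 CPM (0.707).

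Regulators of spermatid genes were higher in 2 of 19 tested, a share at the 10.5% of all genes tested, and lower in none, with a median log2 ratio of 0.07 whose sign was not kept under every setting. These were Spz1, a helix-loop-helix factor (246 and 647 CPM, 2.63), and Kif17, a motor protein that binds a CREM coactivator (15.6 and 42.6 CPM, 2.74). Crem itself had 227 and 327 CPM (1.44) and Sox30 57.8 and 86.0 CPM (1.49). Rfx2, a factor of ciliary and spermatid genes, had 72.4 and 56.2 CPM (0.777), and Tarbp2, an RNA-binding protein of stored messages, 215 and 136 CPM (0.632).

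Meiotic genes lay mostly between. In the synapsis and recombination list 1 of 20 tested genes (30 listed) was higher and 1 lower, with a median log2 ratio of -0.28. Among all genes tested 10.5% were higher and 1.25% lower. Rec8, the meiotic cohesin, had 9.63 and 33.7 CPM (3.50), and Dmc1, the recombinase, 22.9 and 8.83 CPM (0.385). Sycp3 and Sycp1, of the synaptonemal complex, had ratios of 0.812 and 1.18. Among 18 genes of the meiotic divisions the median was -0.40, with Cdc25c higher (5.20 and 11.5 CPM, 2.22) and Ccnb3 lower (16.8 and 4.65 CPM, 0.276). Cyclin B3 is the cyclin of early meiosis, while Ccnb1 and Ccnb2 had ratios of 1.22 and 1.03. Of 18 tested genes of the piRNA pathway, which guards the genome from transposons, Tdrd6 alone was called, with 203 and 93.9 CPM (0.463). None of 13 tested genes of DNA replication was called.

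Among X- and Y-linked spermatid genes 4 of 16 tested (30 listed) were higher and none lower, with a median log2 ratio of 0.35. Over all genes tested the shares were 10.5% and 1.25%. Slxl1 had 65.0 and 232 CPM (3.58) and Sly 5.58 and 19.5 CPM (3.49). Both belong to multicopy families in which reads can be split between copies. Akap4 and Akap14 were the other higher members. The Cypt genes, also multicopy, had ratios from 0.480 for Cypt15 to 1.24 for Cypt4. Of 18 tested chaperone genes, Pdilt alone was called, with 28.3 and 117 CPM. Klhl10, part of a ubiquitin ligase that spermatids need, was higher with a ratio of 3.26. None of 79 cytosolic ribosomal protein genes and none of 13 mitochondrial RNAs was called, with medians of -0.18 and -0.20, the latter changing sign in shallow barcodes.

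**Figure D3:**
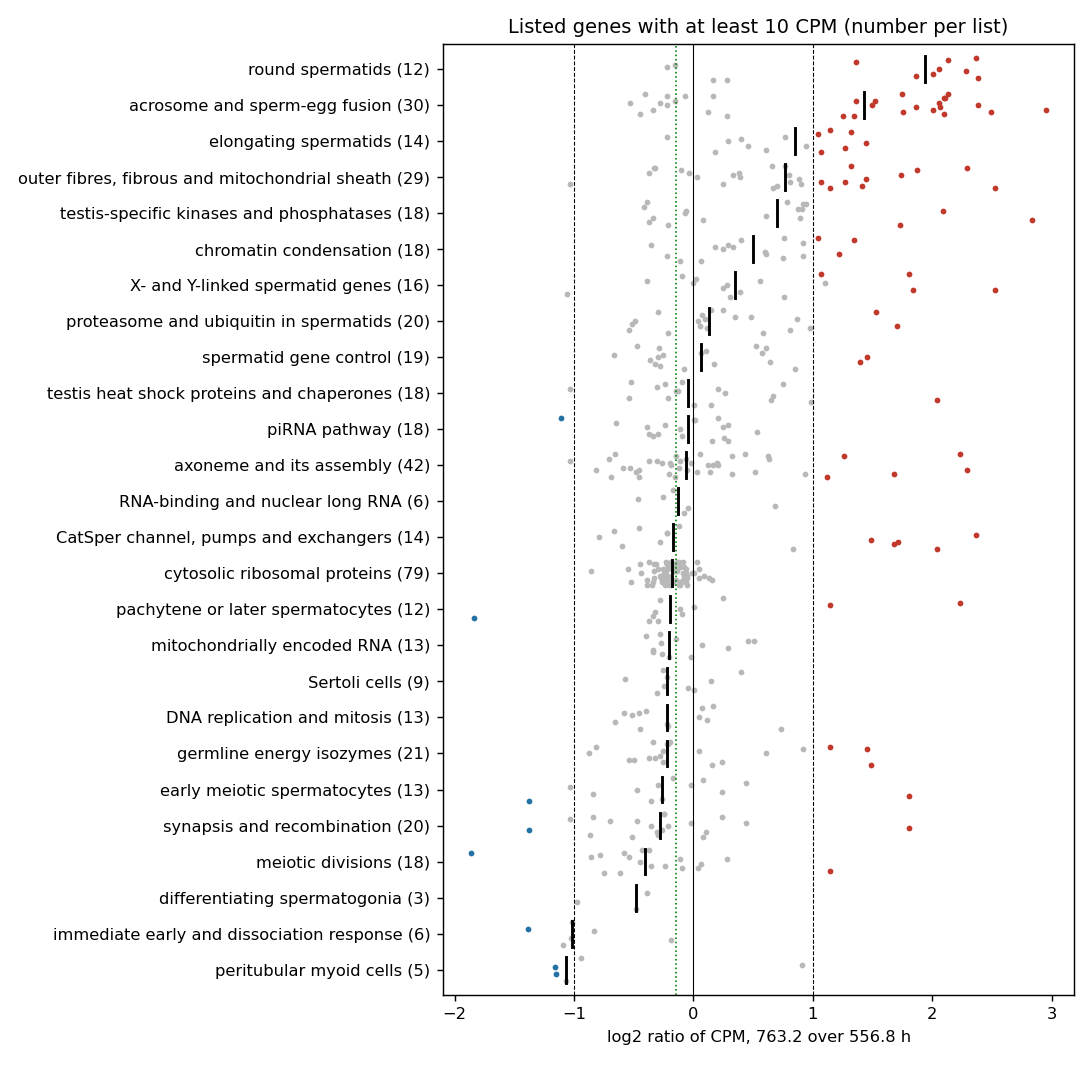
Log2 ratio of CPM (763.2 over 556.8 h, x axis) of each listed gene with at least 10 CPM, 1 row per list with the number of genes, coloured red where higher, blue where lower and grey where between. Black bars are list medians, the green dotted line is the median over all genes tested (-0.15) and dashed lines mark 2-fold. Round spermatid and acrosome genes lie farthest right, with medians of 1.94 and 1.43.

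Somatic markers took few UMIs in either library. The 16 Sertoli cell markers summed to 584 and 490 CPM, none of 9 tested was called, and their median log2 ratio was -0.22. It was -0.64 in barcodes with at least 10000 UMIs and 1.26 in those below, so the depth of the barcodes turned its sign. Against 1.25% of all genes tested, peritubular myoid markers were lower in 2 of 5 tested, Myh11 and Tagln, with ratios of 0.451 and 0.448. Their median log2 ratio of -1.07 went from -2.43 in barcodes with at least 10000 UMIs to -0.14 in those below. Actg2 of the same list had 72.2 and 135 CPM, but elongating-like germ cells held 69.2% of its UMIs at 556.8 h and round-like ones 41.2% at 763.2 h. Peritubular-myoid-like barcodes, 69 at 556.8 h and 76 at 763.2 h, held 0.487% and 0.478% of UMIs. Immediate early genes, which cell dissociation can switch on, were lower for Egr1 alone of 6 tested, with a median log2 ratio of -1.02. Egr1 had 518, 254, 73.3, 13.7 and 5.24 CPM in time order, so the 2 libraries compared were the lowest of the 5. Their part in other differences was not tested.

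Markers of Leydig cells, the hormone-making cells between the tubules, were near 0 at 556.8 h. The 7 genes summed to 1.52 CPM at 556.8 h and 23.6 CPM at 763.2 h, and each of them stayed below 10 CPM. Cyp17a1 had 10 UMIs at 556.8 h and 910 at 763.2 h (0.0851 and 7.80 CPM, ratio 91.7 with an interval of 49.6 to 192), and Cyp11a1 9 and 802 UMIs. Insl3 had 0 and 525 UMIs, at least 176-fold higher against the limit of 3 counts that a count of 0 allows. At 763.2 h 8 barcodes with at least 10 UMIs of these markers held 2567 of their 2752 UMIs (93.3%), and no barcode at 556.8 h had as many. A handful of barcodes thus held most of these UMIs. Star, a steroid transport gene of the same list, had 1.36 and 1.29 CPM.

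The kept barcodes of both libraries were clustered together and each cluster was called X-like from its markers. Round-spermatid-like barcodes were 241 of 9229 at 556.8 h (2.61%, 2.30 to 2.96) and 1860 of 11961 at 763.2 h (15.6%, 14.9 to 16.2). They gave 1.81% and 19.8% of UMIs. Elongating-spermatid-like barcodes were 986 (10.7%, 10.1 to 11.3) and 953 (7.97%, 7.49 to 8.47) and gave 13.9% and 11.8% of UMIs. Round-like barcodes thus stood higher at 763.2 h while elongating-like ones were there at both times. Early-meiotic-spermatocyte-like barcodes were 10.3% and 2.88%. Germ cells to which no stage could be given were 45.5% and 17.3%, and barcodes of clusters given no name 22.9% and 49.5%, with a median of 2552 UMIs at 763.2 h. Several clusters given no name scored best on round spermatid markers without meeting the naming rule. Cluster 39 (mean log2 marker score 1.07) held 33 barcodes at 556.8 h and 254 at 763.2 h. Cluster 5 (0.516) held 51 and 1015, and cluster 4 (0.172) held 14 and 2318. Cluster 4 scored nearly as high (0.151) on markers of pachytene or later spermatocytes. The round-like shares here and below leave these clusters out, and other clusters without a name scored best on other markers.

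These shares moved with depth and clustering. The order of the elongating-like shares turned at a clustering resolution of 1, with 7.47% and 9.61%, and in barcodes with at least 5000 UMIs, with 11.2% and 17.4%. Among barcodes with at least 10000 UMIs, round-like ones were 1.41% and 18.6% and elongating-like ones 20.4% and 21.4%. Several clusters came almost wholly from 1 library and may mark that library and not a cell type. Elongating-like barcodes fell into different clusters: at 556.8 h most were in clusters 9, 20 (338) and 12 (250), and at 763.2 h in clusters 30 (358), 42 (211) and 43 (180). Round-like ones were mostly in clusters 2, 32 and 24 at 763.2 h, with 760, 430 and 413 barcodes. Doublets were not removed, and leaving out barcodes of a doublet score over 0.25 left 909 genes higher and 109 lower.

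**Figure D4:**
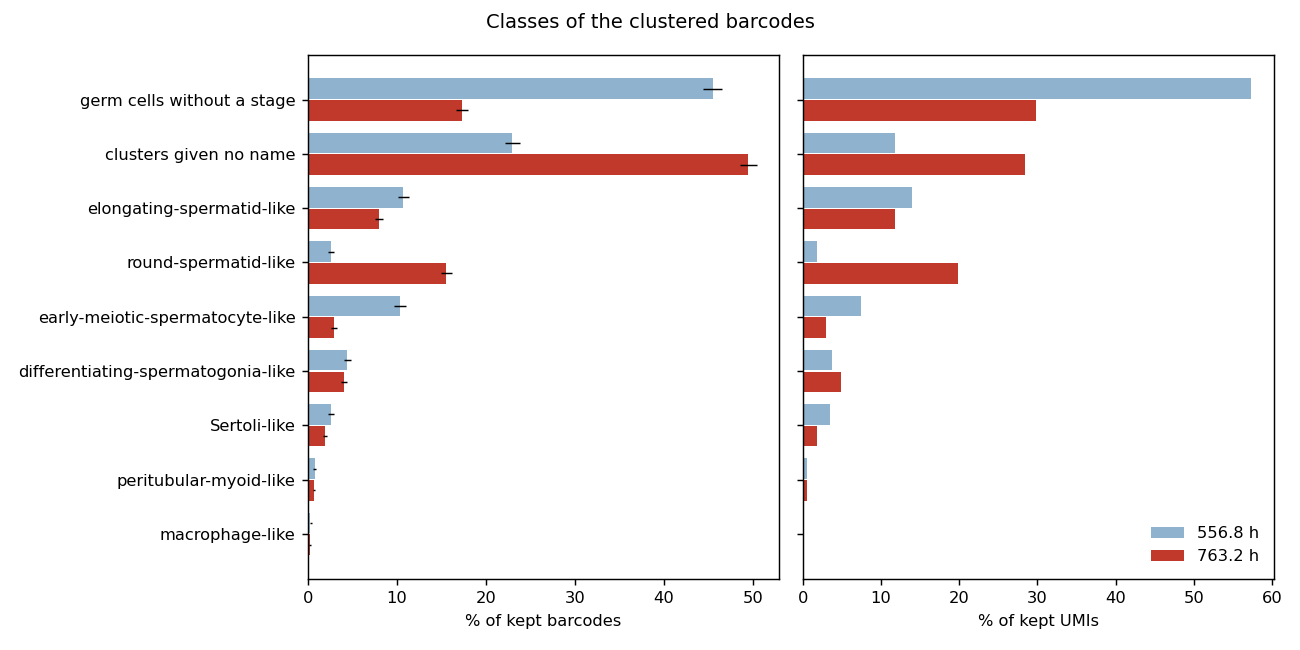
Share of kept barcodes (left, %, bars with exact binomial 95% intervals) and of kept UMIs (right, %) in each class at 556.8 h (blue) and 763.2 h (red). Round-spermatid-like barcodes go from 2.61% to 15.6%, elongating-spermatid-like ones from 10.7% to 7.97%, and clusters given no name hold 49.5% at 763.2 h.

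At 763.2 h round-like barcodes held between 44.9% (Lurap1) and 60.8% (Triml1) of the UMIs of each of the 15 highest genes. Cluster 32 alone, 430 deep barcodes with a median of 35582 UMIs, held between 36.9% (Lurap1) and 53.0% (Stambpl1). At 556.8 h the round-like share was between 15.1% for Pyhin1 and 33.8% for Spam1. Within round-like barcodes the genes differed far less than in the whole sum. Tex36 had 571 CPM there at 556.8 h and 793 CPM at 763.2 h, a ratio of 1.39 (1.31 to 1.47), and Spam1 218 and 268 CPM, a ratio of 1.23 (1.12 to 1.36). Over 7493 genes tested in the class 3 were higher (0.04%) and 116 lower (1.55%). Of the 906 genes higher in the suspension that could be tested in it, 2 were higher there too. The clusters were drawn on the same genes, which narrows differences inside a class, so these values describe and test nothing.

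The same genes had UMIs in cells that should lack them. Tex36 had 15.4 CPM at 556.8 h and 64.4 CPM at 763.2 h in Sertoli-like barcodes and 15.7 and 63.9 CPM in early-meiotic-like ones. Lyzl6 had 16.9 and 66.3 CPM in Sertoli-like barcodes. In these classes both genes were thus on the same side as in the whole sum. Of genes higher in the suspension, 166 of 539 tested were higher in early-meiotic-like barcodes (175 of 8813 genes in all, 1.99%, with 0.329% lower) and 47 of 537 in Sertoli-like ones (121 of 9546, 1.27%, with 0.911% lower). In elongating-like barcodes 17 of 693 such genes were higher and 97 lower (of 5903 genes in all, 0.644% were higher and 17.4% lower). Prm1 had 6839.8 and 4042 CPM in Sertoli-like barcodes, the other way from its whole sum. The part of RNA from outside the cell in these values was not tested.

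The 15 lowest genes split into genes of elongating cells and genes of earlier germ cells. Elongating-like barcodes held between 74.5% (Cst13) and 82.3% (Tuba8) of the UMIs of 11 of them at 556.8 h, and cluster 20 alone between 61.1% (Cst13) and 69.7% (Tuba8). At 763.2 h round-like barcodes held more of the UMIs of Hemgn, Iqcf6, Tuba8, Cst13 and Fam71b than elongating-like ones did, for example 44.8% and 36.9% of those of Tuba8. Within elongating-like barcodes Cst13 had 1029 CPM at 556.8 h and 144 CPM at 763.2 h (0.140), but within cluster 20 it had 1134 and 760 CPM (0.670). Prss52 had 654 and 385.5 CPM in cluster 20 (0.589), against 603 and 97.5 CPM in the class. The class differed far more than its shared cluster. Cluster 20 was drawn on the same genes, with Tuba8, Hemgn, Trp53tg5 and Cst13 among its leading genes. That narrows differences inside it, so these values describe and test nothing. In the class 1027 of 5903 genes were lower (17.4%) and 38 higher (0.644%), and 47 of 54 genes lower in the suspension were lower there too. In cluster 20, with 338 barcodes at 556.8 h and 67 at 763.2 h, 4 of 5586 genes were lower (0.0716%) and 78 higher (1.4%).

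Pou5f2, Cdk20 and PISD had most of their UMIs in germ cells without a stage, 83.0%, 80.6% and 78.7% at 556.8 h. In cluster 22, whose best score was for markers of pachytene or later spermatocytes, Pou5f2 had 263 and 252 CPM, a ratio of 0.957 (0.906 to 1.01), while its whole sum was at 0.280. In cluster 28 it had 274 and 139.5 CPM (0.510). Pou5f2 is itself on the marker list of pachytene or later spermatocytes, and the clusters were drawn on the same genes. These ratios therefore describe and test nothing. Cluster 7, whose leading gene was Pou5f2, held 2277 barcodes at 556.8 h and only 7 at 763.2 h. Prss50, which spermatocytes express from early prophase, had 53.1% of its UMIs in early-meiotic-like barcodes at 556.8 h and 40.5% at 763.2 h.

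Among the most abundant messages the elongating-like barcodes differed in the protamines. Prm1 had 62930.4 and 94901 CPM within the class at 556.8 and 763.2 h (1.51) and Prm2 39522 and 70285 CPM (1.78), while Tnp2 had 39691 and 40241 CPM (1.01). In cluster 20 Prm2 had a ratio of 1.00 and Prm1 of 0.908. The class again differed more than cluster 20, and at 763.2 h cluster 30 held 58.6% of the UMIs of Prm1 and 52.5% of those of Prm2. Akap4 had 807 and 1307 CPM in the class (1.62) and 858 and 920 CPM in cluster 20 (1.07). Prm1, Prm2, Tnp2 and Akap4 are all on the marker list that named the class, so these ratios describe and test nothing.

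**Figure D5:**
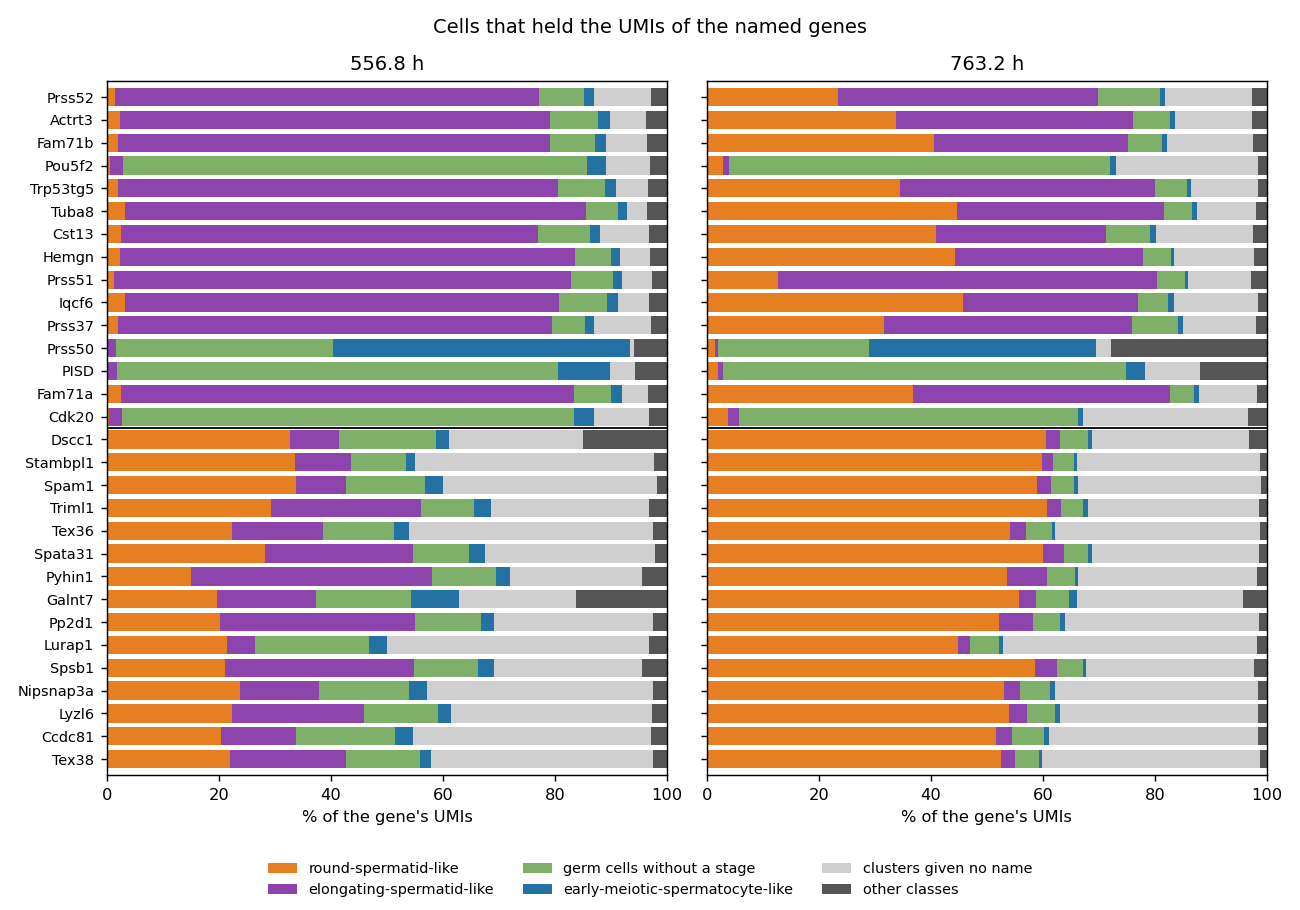
Share of each named gene's UMIs (x axis, %) by class of barcode at 556.8 h (left) and 763.2 h (right), with the 15 lowest genes above the line and the 15 highest below it. At 556.8 h elongating-spermatid-like barcodes hold between 74.5% (Cst13) and 82.3% (Tuba8) of the UMIs of 11 lowest genes, and at 763.2 h round-spermatid-like ones hold between 44.9% (Lurap1) and 60.8% (Triml1) of those of the 15 highest.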

How the data were processed

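The authors deposited 1 matrix per library of UMI counts by gene and barcode, and its header names Cell Ranger 3.0.2. The submitters' processing notes list Seurat 4.3.0.1 and the build mm10 without a role, and no source used here gives how reads were aligned or cells called. Ratios of CPM carry exact conditional binomial intervals and shares exact (Clopper-Pearson) ones, and the calculation was tested on simulated data. UMIs were summed over all kept barcodes of a library, doublets included. With 1 library per time no test was possible. For classes, counts were log-transformed and clustered with scanpy 1.11.5 (3000 variable genes, 40 components, 15 neighbours, Leiden resolution 2, python-igraph 0.11.9) and named from 15 marker lists by score thresholds set after the data were seen. Scrublet's automatic threshold called 1 and 0 barcodes, so a score of 0.25 was used, only as an alternative. Named genes are the 15 highest and 15 lowest by the interval bound nearest 1 (at least 50 CPM, no mitochondrial, ribosomal protein or haemoglobin genes, gene models or clones), the 10 most abundant of each library and the 4 most abundant of each list. The comparison, the 17 function lists and the markers were chosen with earlier results of these data known. Alternatives used edgeR 4.0.16 (TMM) and others.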

Additional observations from a re-analysis of the deposited data

How the results depend on the processing

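No paired analysis was possible because each time had 1 library. Of the 108 lower genes 2 stood above 1 in barcodes under 10000 UMIs. Besides the list medians whose sign is said in the text to turn, those of the piRNA (-0.36 to 0.08), chaperone (-0.06 to 0.12) and RNA-binding (-0.58 to 0.01) lists did so. The Sertoli-like share, 2.56% and 1.91%, was 2.60% and 3.45% with each library clustered alone. The 912 higher genes became 1099 and the 108 lower genes 63 with median-ratio scaling, which shifted the median log2 ratio by 0.14, and 1033 and 67 with TMM, which shifted it by 0.10. Weighing every barcode alike gave 1088 and 259, but there genes were called on the ratio alone, without an interval. Barcodes under 10000 UMIs, a setting added after seeing the data, gave 1132 and 66. Genes of at least 50 CPM gave 410 and 34, no filter 1815 and 352, a 1.5-fold limit 1432 and 734, and a 3-fold limit 434 and 20. The higher share of all calls was 89.4%. It was 80.8% with barcodes weighed alike and no interval, 66.1% at 1.5-fold and 94.5% in barcodes under 10000 UMIs. Of the 15 lowest genes 11 moved by over 1.5 times and 8 came inside 2-fold in barcodes under 10000 UMIs, Hemgn going from 0.299 to 0.667. Lists with a median at least 2-fold from 1 numbered 4, and 2 with either scaling. Round-like shares at 556.8 h were 5.29% with each library clustered alone and 1.10% and 1.41% in barcodes of at least 5000 and 10000 UMIs, and at 763.2 h 13.8%, 16.6% and 18.6%, or 14.3% at resolution 1. Elongating-like shares, whose order between the times turned at resolution 1 and in deeper barcodes, at 556.8 h were 7.47% at resolution 1, 9.35% alone and 20.4% in barcodes of at least 10000 UMIs, and at 763.2 h 9.61% at resolution 1 and 17.4% and 21.4% in barcodes of at least 5000 and 10000 UMIs. The cause of these moves was not tested. Counting error is small at this depth; what it leaves out is the spread between animals and suspensions.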
